A study of Ovis aries with 40 samples.

Results

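Longissimus dorsi muscle of Texel and Ujumqin sheep fetuses was compared at 120 d of gestation. The arrays were chosen by their titles, which gave 3 Texel arrays (T120) and 3 Ujumqin arrays (U120) out of 40 in the series, 31 of them from fetuses. Texel is a heavily muscled breed with little fat, and Ujumqin is an indigenous Chinese breed with less muscle and more fat. Each array carried RNA from 1 fetus, without pooling, and no treatment was compared. All ewes had been synchronized with a drug-releasing implant and gonadotropin injections before insemination. The study sampled the same muscle at 5 fetal stages in both breeds to follow gene expression while the muscle fibres form. All 3 T120 fetuses are labelled male and all 3 U120 fetuses female, so breed and sex cannot be told apart within the 6 arrays. T120 replicate 1 was hybridized on slide 3 and the other 5 arrays on slide 4.

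An annotated autosomal gene here is a gene whose name or accession in the array files matched a single gene on a numbered sheep chromosome. The array carried 774 such genes, of which 745 were tested because their probe was well above background on at least 1 fetal array, and 620 were well above background on all 6 arrays of 120 d. Signals are given on a log2 scale, so that a step of 1 is a 2-fold change, and values of 3 fetuses are listed in the order of their replicate numbers. Differences are Texel minus Ujumqin with the standard error (SE) from limma. Of the spots on each array, between 85.6% (T120 replicate 2) and 89.4% (T120 replicate 1) were well above background, and precision is limited by having 3 fetuses of each breed. The smallest two-sided p that an exact permutation test can give for 3 fetuses against 3 is 0.1, so limma's fit over all probes was used.

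The labelled tissue was checked against 5 tested muscle genes, all of which were well above background on all 6 arrays. TNNC2, the calcium-binding troponin C of fast fibres, was the brightest of them, with 18.85, 18.85 and 18.91 in T120 and 18.99, 18.99 and 18.91 in U120. MYL11, the regulatory light chain of fast fibres, had 18.75, 18.50 and 18.36 in T120 and 18.60, 18.80 and 18.62 in U120. Both genes were near the top of the signal range in every fetus. The labelled sex was checked with USP9Y, a Y-linked gene, which had 12.82, 13.09 and 12.77 in T120 and 2.74, 5.22 and 2.70 in U120. XIST, the RNA that coats the inactive X chromosome, was at least 16.1-fold higher in U120 by its brightest probe (adjusted p = 0.000239). Both matched the labels in all 6 fetuses.

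Skeletal muscle late in gestation holds growing fibres, dividing myogenic cells, vessels, connective tissue and a small population of resident leukocytes. Interferons induce a shared program in most cell types that includes antiviral proteins, guanylate-binding proteins, chemokines and the machinery that loads peptides on class I molecules. Macrophages and dendritic cells add Fc receptors, lysosomal proteases and costimulatory molecules to this program. The formation of new fibres depends on the proliferation of myoblasts and on transcription factors that commit them to differentiation.

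The lists of interferon, antigen presentation and leukocyte genes had a median difference toward Texel. Those of the cell cycle (−0.51) and of myogenic regulation (−0.20) had one toward Ujumqin. The lists of fat genes (−0.24) and of the matrix (−0.21) lay at least as far toward Ujumqin as myogenic regulation. By limma on the 6 arrays, however, 0 of the 745 genes (0%) reached an adjusted p under 0.05 (smallest adjusted p = 0.295). Of 14379 probes 5 did (0.0348%), 1 higher in Texel (0.00695%) and 4 in Ujumqin (0.0278%). Of these 5 probes 1 measures USP9Y and 3 measure XIST, and those follow the sex of the fetuses. The remaining probe, higher in Ujumqin, is not described here. The transporter gene SLC11A1 was 3.05 higher in Texel (SE 0.84, adjusted p = 0.401). The homeobox gene BARX2 differed by −1.65 (SE 0.28, adjusted p = 0.295). With p under 0.05 before adjustment and at least 2-fold, 49 genes (6.58%) passed, against 559 of all 14379 probes (3.89%). Of the 49, 28 genes (3.76%) were higher in Texel and 21 (2.82%) in Ujumqin, and among all probes these shares were 2.26% and 1.63%, or 325 and 234 probes. For all probes this split turned to 63 and 102 with the methods' t-test and to 493 and 697 at 1.5-fold. In the same comparison, the methods' t-test with unequal variances gave 13 genes at that threshold and 0 after adjustment. The unadjusted calls below are therefore descriptions, and counts within a list are to be read against these shares of all genes and against the share without overlap given next.

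The breeds did not overlap in 136 genes (18.3%), against 18.8% of all probes. In 44 of these genes (5.91%) all 3 T120 fetuses lay above all 3 U120 fetuses, and in 92 (12.3%) they lay below. For all probes the shares were 5.88% and 12.9%. Of the 49 genes past the unadjusted threshold, 36 did not overlap, 17 of the 28 higher in Texel and 19 of the 21 higher in Ujumqin. The median difference over the 745 genes was −0.04. A second tested probe was present for 24 of the 49 genes, and 22 of these second probes differed in the same direction, the exceptions being those of EPO and PAX6, which were not well above background on any of the 6 arrays.

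Among the lists of at least 3 tested genes, that of interferon-stimulated and guanylate-binding genes had the highest median difference with all 6 arrays. Of 10 tested genes on it, 8 were higher in Texel and 2 in Ujumqin by their means, and 2 passed the unadjusted threshold, both higher in Texel. No guanylate-binding gene was among the 10, which include the interferon receptor genes IFNAR1 and IFNAR2, the interferon gene IFNG and IRF3. The 2 higher in Ujumqin were IFNAR1 and IRF3. In 1 of the 10 the breeds did not overlap, against 18.3% of all genes. The median difference of the list was 1.66, against −0.04 over all 745 genes, and it was 1.02 without T120 replicate 2 and 1.03 without U120 replicate 3. The cathelicidin and complement list ranked above it without T120 replicate 2 (1.35), U120 replicate 2 (1.29 against 1.23) or U120 replicate 3 (1.19). CXCL10, the chemokine that draws activated T cells to sites of interferon release, had 10.01, 15.13 and 14.27 in T120 and 10.72, 8.87 and 8.62 in U120, a difference of 3.73 (SE 1.37, adjusted p = 0.442). T120 replicates 2 and 3 were high, and T120 replicate 1 lay below U120 replicate 1, so the breeds overlapped. IRF1, a transcription factor induced by interferon gamma, had 7.40, 10.04 and 9.005 in T120 and 7.10, 7.21 and 6.997 in U120, a difference of 1.71 (SE 0.63, adjusted p = 0.442). Here the 3 U120 fetuses lay close together and all 3 T120 fetuses above them, replicate 1 by the least.

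Antiviral genes of the same program varied within both breeds. ISG15, a ubiquitin-like modifier, had 12.48, 15.20 and 12.002 in T120 and 14.09, 9.93 and 9.61 in U120. MX1, a GTPase that blocks viral replication, had 13.12, 14.75 and 12.92 in T120 and 14.56, 10.94 and 10.46 in U120. MX2, its relative, had 10.10, 14.53 and 10.66 in T120 and 11.71, 8.12 and 8.26 in U120. In each of the 3 genes T120 replicate 2 was the highest of the 6 fetuses and U120 replicate 1 was next to it, far above the other 2 Ujumqin fetuses. Their mean differences of 2.01, 1.61 and 2.40 did not pass the unadjusted threshold (adjusted p = 0.638, 0.640 and 0.585). Over the 10 genes of the list, the median deviation from the U120 mean was 0.43, 2.85 and 0.93 in T120 and 0.65, −0.31 and −0.45 in U120.

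Guanylate-binding proteins, GTPases that attack intracellular pathogens, are measured by probes that carry no gene name in the files and that the study annotated by sequence match, so they are not among the 745 genes. The study picked them from these samples for their difference, which therefore is no independent evidence of direction. The 60-base GBP probes are shown because the files do not name them. That of CXCL10, which the files do name, is shown because CXCL10 had the largest difference toward Texel among the genes past the unadjusted threshold. All are in lower case, since no stretch is singled out.
GBP2, probe A_70_P066386: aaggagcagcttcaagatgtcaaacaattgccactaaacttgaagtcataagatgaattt
GBP2, probe A_70_P066921: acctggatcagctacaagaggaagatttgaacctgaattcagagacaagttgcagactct
GBP4, probe A_70_P000126: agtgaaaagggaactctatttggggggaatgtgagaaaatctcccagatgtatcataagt
CXCL10, probe A_70_P039366: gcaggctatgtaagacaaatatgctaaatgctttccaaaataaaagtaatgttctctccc

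GBP2 by probe A_70_P066386 had 13.19, 14.92 and 14.90 in T120 and 10.74, 7.34 and 6.43 in U120, a difference of 6.17 (SE 1.15, adjusted p = 0.357), or 71.9-fold. By probe A_70_P066921 it had 7.71, 9.97 and 9.38 in T120 and 6.29, 4.90 and 4.48 in U120, a difference of 3.80 (SE 0.71, adjusted p = 0.357). Both probes placed every Texel fetus above every Ujumqin fetus, with T120 replicate 1 lowest in Texel and U120 replicate 1 highest in Ujumqin. GBP4 had 4.19, 5.79 and 5.90 in T120 and 2.84, 3.66 and 2.45 in U120, a difference of 2.31 (SE 0.54, adjusted p = 0.377), with 1 of the 3 U120 arrays well above background. The breeds did not overlap, and again T120 replicate 1 was the lowest of its breed.

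**Figure D1:**
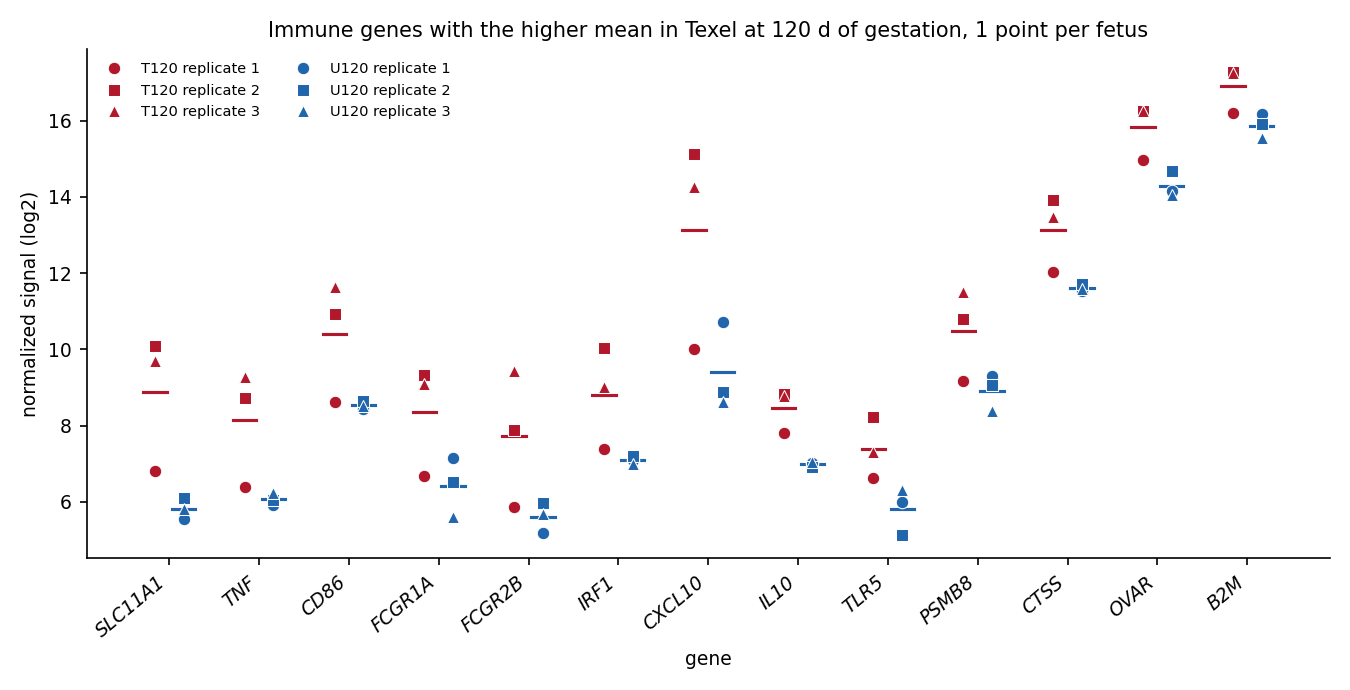
Normalized signal (log2) of 13 immune genes that passed the unadjusted threshold, with 1 point per fetus, symbols for replicates and bars for the mean of each breed. T120 replicate 1 lies nearest the Ujumqin fetuses in the genes drawn, as in IRF1 (7.40 against at most 7.21), but is the highest Texel fetus in ITGAM and SC5, which passed too and are not drawn.

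On the short list of antigen presentation all 5 tested genes had the higher mean in Texel and the median difference was 1.03. The unadjusted threshold was passed by 3 (against 6.58% of all genes), and 3 did not overlap (against 18.3% of all genes). B2M, the light chain of every class I molecule, had 16.20, 17.27 and 17.25 in T120 and 16.17, 15.90 and 15.55 in U120, a difference of 1.03 (SE 0.35, adjusted p = 0.427). CTSS, a lysosomal protease that trims the class II invariant chain, had 12.02, 13.92 and 13.47 in T120 and 11.54, 11.73 and 11.60 in U120, a difference of 1.52 (SE 0.48, adjusted p = 0.412). Neither gene overlapped between the breeds, although T120 replicate 1 exceeded the highest Ujumqin fetus by little in both. PSMB8, a subunit of the immunoproteasome, had 9.17, 10.81 and 11.52 in T120 and 9.31, 9.06 and 8.40 in U120, with an overlap through T120 replicate 1. OVAR, annotated as a class I antigen of the major histocompatibility complex, had 14.97, 16.26 and 16.25 in T120 and 14.15, 14.68 and 14.06 in U120, a difference of 1.53 (SE 0.40, adjusted p = 0.400), without overlap.

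The probe described in the files as OVAR-DQB1, the beta chain of the class II molecule DQ, carries no entry in the name column and was taken from the study's text. Its sequence is shown because it measures a polymorphic gene.
OVAR-DQB1, probe A_70_P017031: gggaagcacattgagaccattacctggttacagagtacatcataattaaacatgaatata
OVAR-DQB1 had 12.22, 13.78 and 16.001 in T120 and 7.86, 1.37 and 1.44 in U120, a difference of 10.44 (SE 1.92, adjusted p = 0.357). Among the U120 arrays 1 of 3 was well above background, that of replicate 1, so the size of the difference rests in part on values that were not. The breeds did not overlap. At 70, 85, 100 and 135 d the breed difference of this probe was 3.85, 3.84, 6.98 and 7.65 in the fit over 10 groups. A difference in the allele that the probe matches and a difference in the amount of RNA cannot be told apart from the signal.

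Of 20 tested leukocyte markers 17 had the higher mean in Texel and 3 in Ujumqin. The unadjusted threshold was passed by 4 in the direction of Texel (against 3.76% of all genes) and 1 in that of Ujumqin (against 2.82% of all genes). The breeds did not overlap in 4 of the 20, close to the 18.3% of all genes. The median difference was 0.91, and 1.38 without T120 replicate 1. FCGR1A, the high-affinity receptor for immunoglobulin G on macrophages, had 6.69, 9.33 and 9.08 in T120 and 7.15, 6.54 and 5.60 in U120, a difference of 1.94 (SE 0.77, adjusted p = 0.460). FCGR2B, an inhibitory Fc receptor, had 5.87, 7.88 and 9.44 in T120 and 5.19, 5.96 and 5.68 in U120. CD86, a costimulatory ligand on antigen-presenting cells, had 8.63, 10.93 and 11.64 in T120 and 8.44, 8.64 and 8.53 in U120, a difference of 1.86 (SE 0.74, adjusted p = 0.460). In these 3 genes T120 replicates 2 and 3 were high and T120 replicate 1 lay within the Ujumqin range. ITGAM, the alpha chain of an integrin of macrophages and granulocytes, was higher in all 3 T120 fetuses, with 5.29, 4.45 and 4.58 against 3.76, 3.89 and 3.49 and 1 of the 3 U120 arrays well above background, and here T120 replicate 1 was the highest. CXCR4, the receptor that guides leukocytes and myogenic cells along CXCL12, was the exception, with 9.60, 9.07 and 8.76 in T120 and 10.23, 10.26 and 10.23 in U120, a difference of −1.10 (SE 0.25, adjusted p = 0.377) without overlap.

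Values of cell type markers are given beside these genes, and their part in the differences was not tested. Of the macrophage and granulocyte markers 3 were tested, CD14, ITGAM and LYZ, all of them also on the leukocyte list. Their summed linear signal was 582, 3858 and 1286 in T120 and 450, 604 and 522 in U120, with the probe of LYZ, the lysozyme gene, as the brightest. Their median difference was 1.06 (0.34 with normexp background correction), and 1 of the 3 passed the unadjusted threshold. Of the T and NK cell markers 4 were tested, CD3D, CD3E, CD4 and CD247, which are also on the leukocyte list. Their summed signal was 386, 911 and 6049 in T120 and 706, 923 and 853 in U120, with the probe of CD3E as the brightest, CD4 not well above background on any of the 6 arrays, and 0 of the 4 past the threshold. The sum of T120 replicate 3 stood far above the rest, that of T120 replicate 1 was the lowest of the 6 and that of T120 replicate 2 lay within the Ujumqin range. The median difference of the 4 was 0.65, and it was −0.33 without T120 replicate 3, 1.37 without T120 replicate 1 and 0.38 with a floor of 16. No immunoglobulin chain and no B cell marker was among the tested autosomal genes. More cells of a type and more RNA per cell cannot be told apart in whole muscle.

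Of the 4 widest ranges within Texel among the 620 genes, 3 were of chains of the T cell receptor complex. CD3E had 6.87, 8.87 and 12.05 in T120 and 8.13, 8.78 and 8.58 in U120. LOC443398, described in the files as the CD3 gamma chain, had 5.79, 8.54 and 10.95 in T120 and 7.03, 7.88 and 7.65 in U120. CD3D, the delta chain, had 5.63, 8.05 and 10.52 in T120 and 6.42, 7.07 and 7.13 in U120. All 3 chains, which are assembled into 1 complex, were lowest in T120 replicate 1 and highest in T120 replicate 3, with the Ujumqin fetuses between them. Their mean differences were 0.76, 0.91 and 1.19, small beside ranges within T120 of 5.18, 5.16 and 4.89. CD247, the zeta chain of the same complex, did not share this pattern, with 7.76, 7.45 and 8.41 in T120 and 8.40, 8.43 and 8.35 in U120. The probe of CD3E is shown because its range within Texel was the widest of the 620 genes.
CD3E, probe A_70_P039466: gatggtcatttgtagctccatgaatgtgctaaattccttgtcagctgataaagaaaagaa

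Cytokines and innate sensors were less uniform. Of 29 tested genes 4 passed the unadjusted threshold in the direction of Texel and 1 in that of Ujumqin, and the median difference was 0.34, with 0.67 without T120 replicate 1, 0.52 without T120 replicate 3 and 0.17 with normexp. The breeds did not overlap in 8 of the 29, against 18.3% of all genes. TNF, a central inflammatory cytokine, had 6.39, 8.74 and 9.28 in T120 and 5.92, 6.06 and 6.23 in U120, a difference of 2.07 (SE 0.72, adjusted p = 0.431). IL10, which restrains macrophages, had 7.81, 8.83 and 8.78 in T120 and 7.01, 6.93 and 7.06 in U120, a difference of 1.47 (SE 0.31, adjusted p = 0.377). TLR5, the receptor for flagellin, had 6.64, 8.22 and 7.31 in T120 and 5.99, 5.13 and 6.31 in U120, a difference of 1.58 (SE 0.48, adjusted p = 0.412). In all 3 genes every Texel fetus lay above every Ujumqin fetus. IL7, a growth factor of lymphocytes, was 1.70 higher in Texel, with 1 of the 3 U120 arrays well above background. CD40, a receptor on antigen-presenting cells, was lower in Texel, with 8.37, 7.80 and 7.89 against 8.97, 9.44 and 8.87, a difference of −1.07 (SE 0.25, adjusted p = 0.377), without overlap.

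SLC11A1, a metal transporter of the phagosome in macrophages, had 6.82, 10.09 and 9.70 in T120 and 5.55, 6.11 and 5.81 in U120, and the 3.05 difference given above was without overlap. CHI3L1, a chitinase-like protein secreted by macrophages and stromal cells, had 7.79, 10.83 and 9.64 in T120 and 7.03, 7.76 and 7.71 in U120. The list of cathelicidins, defensins and complement had 10 tested genes, of which BAC5, CATHL1B, CATHL3 and SC5 are cathelicidins and C3 a complement component. The other 5, ALB, AHSG, TF, CP and LTF, are plasma and iron- or copper-binding proteins, and no defensin was tested. All 10 had the higher mean in Texel and the median difference was 0.89, with 0.23 without U120 replicate 1, 0.49 without T120 replicate 1, 1.35 without T120 replicate 2 and 0.56 with normexp. The breeds overlapped in all 10. Past the unadjusted threshold was SC5, a cathelicidin precursor of granulocytes, with 13.70, 11.87 and 12.81 in T120 and 10.20, 12.004 and 8.77 in U120, a difference of 2.47 (SE 0.87, adjusted p = 0.431). U120 replicate 2 lay above T120 replicate 2 in SC5, and T120 replicate 1 was the highest, unlike in the interferon genes.

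CEBPB, a transcription factor of macrophages and adipocytes, is measured by a probe without a name in the files, which the study annotated by sequence match and picked from these samples. It had 8.17 and 6.91 in T120 replicates 1 and 2 and 5.42, 5.85 and 5.97 in U120, and the spot of T120 replicate 3 was left out as an outlier of the scanner software. The difference was 1.79 (SE 0.43, adjusted p = 0.398) from 2 Texel and 3 Ujumqin fetuses, without overlap. A further probe, whose name in the files was matched to CEBPB, gave a difference of 1.02 that did not pass the unadjusted threshold. The probe is shown because it rests on a sequence match.
CEBPB, probe A_70_P011531: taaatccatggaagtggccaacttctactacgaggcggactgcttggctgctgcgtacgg

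Other genes higher in Texel had roles outside immunity. PTGFR, the receptor for prostaglandin F2 alpha, had 7.11, 8.61 and 7.98 in T120 and 5.17, 5.84 and 6.33 in U120, a difference of 2.12 (SE 0.46, adjusted p = 0.377), without overlap. NPVF, a neuropeptide precursor, had 7.54, 6.51 and 7.55 in T120 and 6.24, 5.75 and 5.58 in U120, without overlap. MT4, a metallothionein, had 6.97, 5.77 and 4.84 in T120 and 3.88, 4.64 and 4.31 in U120, with T120 replicate 1 the highest. EPO, the hormone that drives red cell formation, had 6.41, 6.09 and 3.09 in T120 and 2.91, 2.09 and 3.41 in U120. No U120 array was well above background for EPO and 2 of the 3 T120 arrays were (adjusted p = 0.450), with an overlap through T120 replicate 3, so no fold is given.

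BARX2, a homeobox factor expressed in myogenic precursors, had the smallest p among the genes higher in Ujumqin. It had 11.85, 10.87 and 11.39 in T120 and 12.96, 13.16 and 12.93 in U120, and the −1.65 difference given above was without overlap, with more than 1 unit between the closest fetuses of the breeds. The probe is shown because BARX2 is the gene whose difference at this stage stood apart from the other stages, as described further on.
BARX2, probe A_70_P041766: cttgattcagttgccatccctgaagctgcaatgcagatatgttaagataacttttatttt
Of 19 tested genes of myogenic regulation 15 had the higher mean in Ujumqin and 4 in Texel, 8 did not overlap (against 18.3% of all genes) and 1 passed the unadjusted threshold (against 6.58% of all genes). The median difference was −0.20, with −0.32 without T120 replicate 2 and −0.12 without T120 replicate 3. MYOD1, the factor that commits cells to the muscle lineage, had a difference of −0.81 (SE 0.18, adjusted p = 0.377), short of 2-fold, and is named here after its value was seen. The list named for growth factors of the insulin, growth hormone and fibroblast families had 34 tested genes. It also holds receptors, binding proteins and members of other families, such as BMP2, EGFR and VEGFA. Of the 34 genes 2 passed, both higher in Ujumqin. The median difference of the list was −0.11, with −0.21 without T120 replicate 1 and −0.19 without T120 replicate 2. It was −0.20 without U120 replicate 1, −0.07 without U120 replicate 3 and −0.07 with the deposited table. FGF18, a fibroblast growth factor, had 9.86, 9.07 and 9.34 in T120 and 10.42, 10.28 and 10.61 in U120, a difference of −1.01 (SE 0.25, adjusted p = 0.385), without overlap.

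In 11 of 11 tested cell cycle genes the mean was higher in Ujumqin. Of these 1 passed the unadjusted threshold (against 6.58% of all genes) and 3 did not overlap (against 18.3% of all genes), and the median difference was −0.51, with −0.26 without T120 replicate 3. CDK1, the kinase that starts mitosis, had 9.40, 7.72 and 8.07 in T120 and 9.49, 9.65 and 9.79 in U120, a difference of −1.25 (SE 0.44, adjusted p = 0.433). ASPM, a spindle pole protein outside the list, had 9.36, 7.31 and 7.08 in T120 and 9.76, 9.50 and 9.46 in U120, a difference of −1.66 (SE 0.60, adjusted p = 0.439). In both genes T120 replicate 1 lay just under the Ujumqin fetuses and T120 replicates 2 and 3 far below them. The median deviation of the 11 genes from the U120 mean was −0.09, −0.63 and −0.89 in T120 and 0.06, −0.10 and −0.02 in U120. BAX, a promoter of apoptosis, showed the same order, with 9.67, 7.98 and 7.47 in T120 and 9.91, 10.09 and 9.86 in U120.

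**Figure D2:**
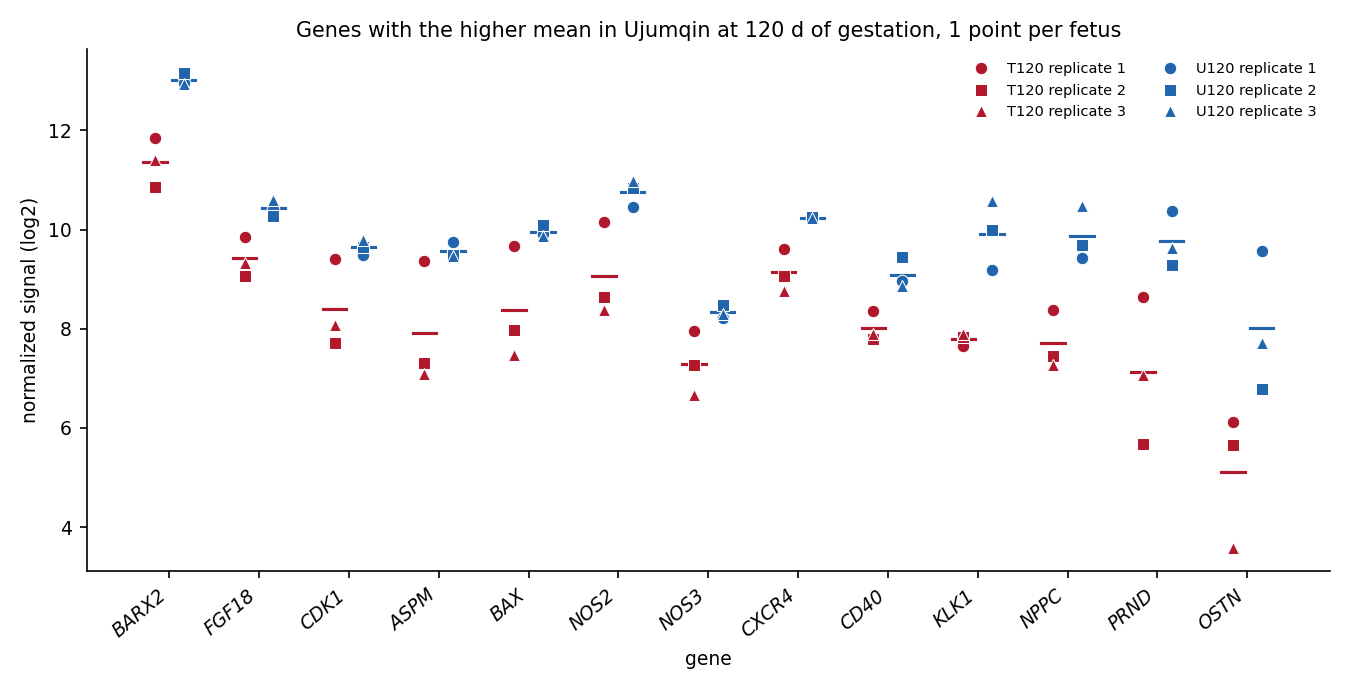
Normalized signal (log2) of 13 genes with the higher mean in Ujumqin that passed the unadjusted threshold, with 1 point per fetus, symbols for replicates and bars for the mean of each breed. The breeds do not overlap in the 13 drawn, and T120 replicate 1 is the highest Texel fetus in all but KLK1 (7.66), while in STAR, not drawn, it is the lowest as well.

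Other genes past the unadjusted threshold were higher in Ujumqin too. NOS2, the inducible nitric oxide synthase, had 10.15, 8.64 and 8.38 in T120 and 10.46, 10.84 and 10.98 in U120, a difference of −1.70 (SE 0.48, adjusted p = 0.401). NOS3, the endothelial synthase, had 7.95, 7.26 and 6.66 in T120 and 8.21, 8.47 and 8.31 in U120, a difference of −1.04 (SE 0.34, adjusted p = 0.415). Neither overlapped, and NOS3 was the only 1 of 5 tested markers of endothelium and smooth muscle past the unadjusted threshold, while the median of the 5 was 0.74 in the direction of Texel, with 0.41 without T120 replicate 2, 0.33 without T120 replicate 3, 0.22 without U120 replicate 1 and 0.39 with normexp. NPPC, the precursor of C-type natriuretic peptide, had 8.39, 7.44 and 7.28 in T120 and 9.43, 9.68 and 10.47 in U120, a difference of −2.16 (SE 0.40, adjusted p = 0.357). KLK1, the protease that releases kinins, had 7.66, 7.83 and 7.90 in T120 and 9.18, 9.99 and 10.57 in U120, a difference of −2.12 (SE 0.36, adjusted p = 0.295). In KLK1 the 3 Texel fetuses lay close together. OSTN, also known as musclin, a peptide secreted by muscle that blocks clearance of natriuretic peptides, had 6.13, 5.65 and 3.58 in T120 and 9.56, 6.79 and 7.72 in U120, a difference of −2.90 (SE 0.91, adjusted p = 0.412). PRND, the gene of the prion-like protein doppel, had 8.64, 5.68 and 7.07 in T120 and 10.38, 9.29 and 9.63 in U120, a difference of −2.64 (SE 0.74, adjusted p = 0.401).

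Of 29 tested genes on the list of peptide hormones, neuropeptides and receptors 3 passed in the direction of Ujumqin (against 2.82% of all genes) and 1 in that of Texel (against 3.76% of all genes). The 3 were NPPC, POMC and KLK1, the last a protease and not a hormone, and the 1 was NPVF. The median difference was −0.06, and it changed sign to 0.07 without T120 replicate 3 and 0.05 without U120 replicate 3, and was −0.34 without T120 replicate 1, −0.18 without T120 replicate 2, −0.23 without U120 replicate 1 and −0.11 without U120 replicate 2. With normexp it was −0.03, with the deposited table −0.15 and with a floor of 16 it was 0. POMC, the precursor of corticotropin, had 10.29, 9.12 and 9.66 in T120 and 12.08, 9.97 and 12.29 in U120, so that U120 replicate 2 lay within the Texel range. The genes that follow, GHRL, STAR and CSN2, are not among the 29. GHRL, the ghrelin precursor, is on the growth factor list. It overlapped through T120 replicate 3, its difference being −1.24 (SE 0.43, adjusted p = 0.429). STAR, which carries cholesterol into mitochondria for steroid synthesis, had 3.51, 4.03 and 4.596 in T120 and 5.38, 5.01 and 5.54 in U120, without overlap. CSN2, the gene of the milk protein beta-casein, had 11.88, 10.47 and 9.30 in T120 and 12.03, 12.80 and 12.47 in U120, without overlap.

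STMN2 and TRRAP were taken from the study's text through probes that the files do not name. STMN2, a tubulin-binding protein of growing neurites, had 7.33, 6.59 and 4.06 in T120 and 8.43, 11.73 and 10.99 in U120, a difference of −4.39 (SE 1.13, adjusted p = 0.396). TRRAP, a scaffold of histone acetyltransferase complexes, had 5.62, 4.58 and 5.49 in T120 and 7.56, 7.57 and 7.41 in U120, a difference of −2.29 (SE 0.30, adjusted p = 0.192). Neither overlapped, and TRRAP was nearly constant over the Ujumqin fetuses. Both were picked by the study for their difference in these samples, and their sequences are shown because the files do not name them.
STMN2, probe A_70_P005526: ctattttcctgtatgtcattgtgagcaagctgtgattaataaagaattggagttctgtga
TRRAP, probe A_70_P019481: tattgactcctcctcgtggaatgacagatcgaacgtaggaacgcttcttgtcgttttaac

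Fat and fuel genes differed little as groups. Of 20 tested genes of fatty acids, sterols and adipose tissue 2 passed the unadjusted threshold, both higher in Ujumqin, with a median difference of −0.24 that was −0.09 without T120 replicate 3, −0.11 without U120 replicate 2, −0.11 with the deposited table and −0.12 with normexp. APOA1, the main protein of high-density lipoprotein, had 12.12, 10.07 and 10.83 in T120 and 12.95, 12.42 and 12.98 in U120, a difference of −1.77 (SE 0.52, adjusted p = 0.401), without overlap. ACACA, which makes malonyl-CoA for fatty acid synthesis, had 4.16 and 2.89 in T120 replicates 2 and 3 and 4.79, 5.02 and 4.90 in U120, with the spot of T120 replicate 1 left out as an outlier and 1 T120 array well above background. With the deposited table of normalized values, which holds a value for that spot, the ACACA difference was 0.17. PPARG, the master regulator of fat cells, and LPL, which releases fatty acids from lipoproteins, had differences of −0.23 and 0.50 and did not pass. On the list of glycolysis and fuel choice 11 of 13 tested genes had the higher mean in Texel, and 0 passed by limma. The median of the list was 0.28 (0.16 without T120 replicate 2). It also holds genes outside glycolysis, among them PCK1 and PPARGC1A, the 2 with the higher mean in Ujumqin. ALDOA, the muscle aldolase, had 17.11, 17.56 and 16.79 in T120 and 16.80, 17.00 and 17.08 in U120.

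As lists, the tested genes of the contractile apparatus, the matrix and the ribosome had small median differences. Of 9 tested genes of the sarcomere and fibre type 0 passed by limma, with a median difference of −0.14 (−0.05 without T120 replicate 3, −0.08 without U120 replicate 2 and −0.05 with 75th percentile scaling). The 9 include genes outside the sarcomere, such as ACTB, ACTG1 and MYLK, and no myosin heavy chain, so they cover little of the contractile apparatus. CRYAB, a chaperone of the Z-disc, had the smallest p of them, with 16.14, 15.74 and 14.94 in T120 and 16.003, 16.69 and 16.53 in U120, a difference of −0.80 (SE 0.36, adjusted p = 0.489). Of 10 tested matrix genes 0 passed, with a median of −0.21 (−0.10 without T120 replicate 2, −0.05 without U120 replicate 1, −0.06 with normexp and −0.13 with a floor of 16), and DCN, the proteoglycan decorin, had a difference of 0.08. Of 16 tested ribosomal protein genes 0 passed, with a median of 0.00 (0.16 with 75th percentile scaling). In the plot of gene lists the ribosomal proteins stayed within 0.06 of the U120 mean in every fetus. HBB, the beta chain of haemoglobin, had 16.95, 17.71 and 15.21 in T120 and 16.82, 17.12 and 16.54 in U120, with T120 replicate 3 the lowest. Fewer red cells and less HBB RNA per cell cannot be told apart.

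**Figure D3:**
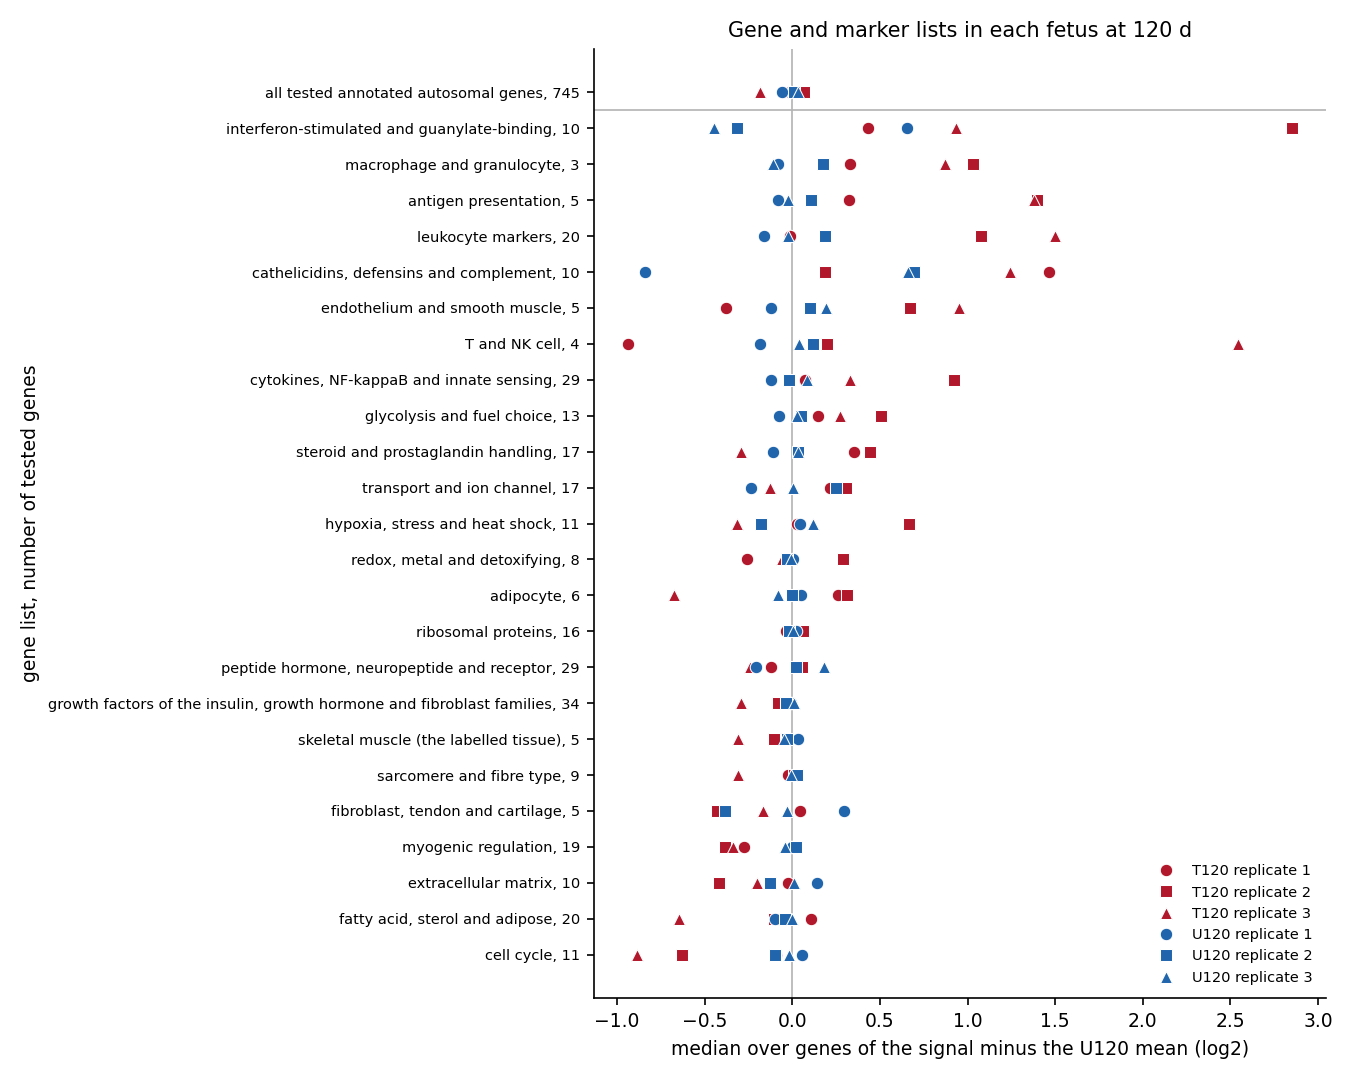
Median over the genes of each list of the log2 signal minus the U120 mean of the gene, with 1 point per fetus, for lists with at least 3 tested genes, ordered by the median breed difference, and for all 745 genes at the top. The interferon list is highest in T120 replicate 2 (2.85) and the T and NK cell list in T120 replicate 3 (2.54), while T120 replicate 1 lies at 0.43 and −0.94.

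Leaving out single fetuses moved the counts. Without T120 replicate 1, the only array of this stage on slide 3, 104 genes (14%) passed the unadjusted threshold, 59 higher in Texel (7.92%) and 45 in Ujumqin (6.04%). The adjusted threshold was passed by 14 genes (1.88%), 9 higher in Texel (1.21%) and 5 in Ujumqin (0.671%), where 0 had passed with all 6 arrays, and by 153 of all probes (1.06%), 0.751% higher in Texel and 0.313% in Ujumqin. The same 14 genes passed with slide as a block, because a single array of this stage on a slide leaves the breeds to be compared on slide 4 alone. Among them were SLC11A1 (4.07, adjusted p = 0.0168), TNF (2.94, adjusted p = 0.0271), ASPM (−2.38, adjusted p = 0.0271), IL10 (1.81, adjusted p = 0.0312) and BARX2 (−1.89, adjusted p = 0.0438). The unadjusted count was 30 without T120 replicate 2, 31 without U120 replicate 2 and 30 without U120 replicate 3. In 21 of the 28 genes higher in Texel, T120 replicate 1 was the Texel fetus nearest the Ujumqin fetuses, and in 16 of the 20 higher in Ujumqin that had a value for all 3 Texel fetuses. Whether slide 3 or the fetus itself set T120 replicate 1 apart was not tested, since no second array of this stage lay on that slide. The direction split of the 49 genes moved with the processing, from 57.1% higher in Texel to 64.4% of 59 genes with 75th percentile scaling, 47.4% of 19 genes after normexp background correction and 42.9% of 28 genes with a floor of 16. It was 4 in Texel and 9 in Ujumqin by the methods' t-test, 14 and 17 without U120 replicate 2, and 14 and 16 without U120 replicate 3.

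Fetuses of the same breed were spread more widely in Texel than in Ujumqin at this stage. Over the 620 genes well above background on all 6 arrays, the median SD between fetuses was 0.48 in T120 and 0.20 in U120 (n = 3 each), and 515 genes (83.1%) had the larger SD in T120. The median ratio of the SDs was 2.26. A range of 2-fold or more among the 3 fetuses was found for 276 genes (44.5%) in T120 and 66 (10.6%) in U120. In the other 9 fetal groups of breed and stage the median SD of the same genes lay between 0.18 (T85) and 0.34 (T135), a span that includes U120. The median SD of T120 was 0.40 without replicate 1, 0.40 without replicate 2 and 0.32 without replicate 3, each above the 0.20 of U120. These 3 values are SDs of 2 fetuses, which tend to be smaller than SDs of 3, so they are not comparable with the 0.34 of T135. By pairs of fetuses, the lowest median absolute difference in T120 was 0.449 and the highest in T135 was 0.447. Without U120 replicate 1 the median SD of U120 was 0.11. No test compared the spreads.

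**Figure D4:**
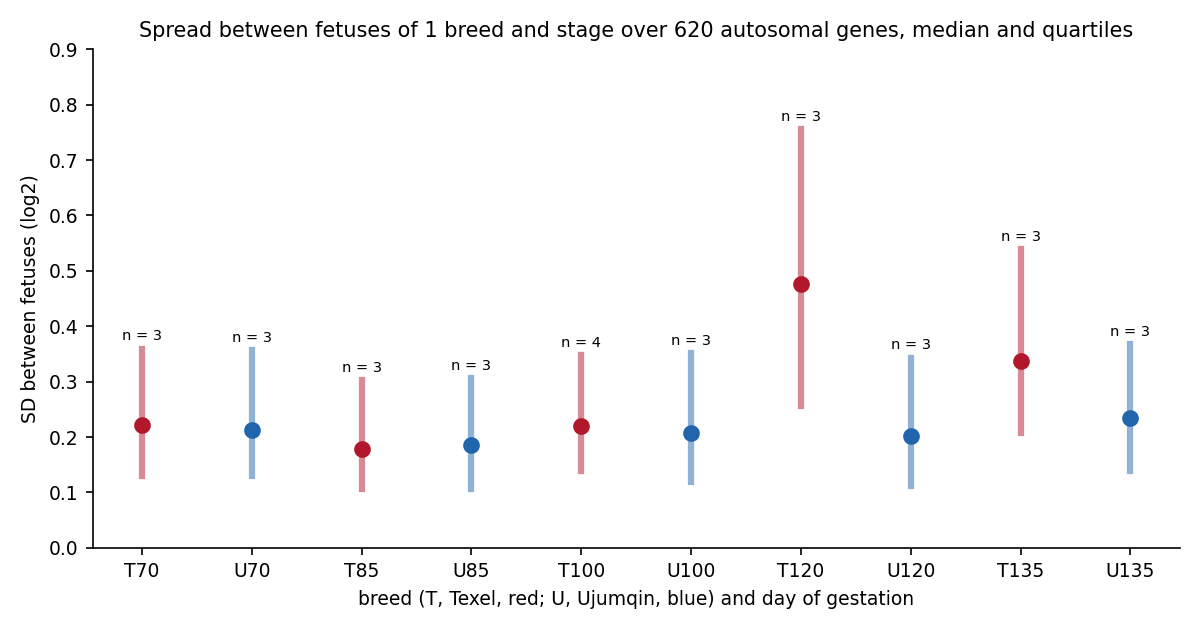
SD between fetuses of the log2 signal (vertical axis) for the 10 fetal groups, shown as the median (point) and quartiles (bar) over the 620 genes well above background on all arrays of 120 d. T120 has the highest median, 0.48, followed by T135 at 0.34. Without its replicate 3 T120 has 0.32, an SD of 2 fetuses that is not comparable with the SDs of 3.

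Pairs of fetuses show where the spread lay. The median absolute difference over the 620 genes was 0.45 between T120 replicates 1 and 2, 0.56 between 1 and 3, and 0.57 between 2 and 3, the last pair on the same slide. Between Ujumqin fetuses, all on slide 4, it was 0.27 for replicates 1 and 2, 0.28 for 1 and 3, and 0.16 for 2 and 3. T120 replicate 1 was nearer to the Ujumqin fetuses, at 0.30, 0.29 and 0.30, than to either Texel fetus. T120 replicate 2 lay at 0.54, 0.42 and 0.42 from them and T120 replicate 3 at 0.50, 0.56 and 0.65. Thus each pair of Texel fetuses differed by more than any pair of Ujumqin fetuses, and the pair on 1 slide differed by as much as the pairs on separate slides. In T120 replicate 3, 106 genes stood 2-fold or more below both other Texel fetuses and 42 above, and in T120 replicate 2 these counts were 25 and 59. In T120 replicate 1 they were 69 and 70, whereas no Ujumqin fetus exceeded 19 in either direction.

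Of the 620 genes, those that ranged most within Ujumqin were 3 interferon genes and 2 others. ISG15 ranged over 4.48, MX1 over 4.10 and MX2 over 3.60, all through high values in U120 replicate 1. SC5 ranged over 3.23 with U120 replicate 2 the highest. EGR1, an immediate early gene, ranged over 3.05, with 13.30, 12.53 and 15.59 in U120 and 13.57, 14.29 and 12.12 in T120. Within Texel the widest ranges were those of CD3E, LOC443398, CXCL10 (5.12), CD3D and MX2 (4.43). The high fetus was T120 replicate 3 for the CD3 chains and T120 replicate 2 for CXCL10 and MX2.

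Pooling the spread over all 31 fetal arrays let some genes pass adjustment. In 1 limma fit to all 10 combinations of breed and stage, 19 genes (2.55%) had an adjusted p under 0.05 and 2-fold at 120 d, against 267 of all probes (1.86%). Of these genes 5 were higher in Texel (0.671%) and 14 in Ujumqin (1.88%), against 0.925% and 0.932% of all probes. They were led by BARX2 (adjusted p = 0.000507), PTGFR (adjusted p = 0.0101) and APOA1 (adjusted p = 0.0101). This fit assumes the same spread in every group, while that of T120 was the widest. With sex as a further term, which the other stages inform since they hold both sexes, 10 genes (1.34%) passed, all of them among the 19, against 0.751% of all probes. Higher in Texel were 2 genes (0.268%, against 0.264% of all probes), TLR5 and PTGFR, and in Ujumqin 8 (1.07%, against 0.487%). The latter were BARX2, NOS2, CXCR4, APOA1, ASPM, KLK1, CD40 and CSN2. The difference of BARX2 with sex as a term was −1.55 (SE 0.24, adjusted p = 0.00507), that of TLR5 1.94 (SE 0.41, adjusted p = 0.0299) and that of PTGFR 1.82 (SE 0.44, adjusted p = 0.0466). Slide as a block in the same fits gave 23 and 13 genes.

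The counts of these fits also depended on single fetuses. In the fit over 10 groups 88 genes passed without T120 replicate 1, with the split turned to 49 in Texel and 39 in Ujumqin, 8 without T120 replicate 2, 5 without T120 replicate 3, 3 without U120 replicate 2 and 5 without U120 replicate 3. The split was 8 and 9 with normexp and 8 and 11 without U120 replicate 1. With sex as a term the counts were 80 without T120 replicate 1, with the split turned to 47 in Texel and 33 in Ujumqin, 1 without T120 replicate 2, 1 without T120 replicate 3, 5 without U120 replicate 1, 2 without U120 replicate 2 and 2 without U120 replicate 3. With normexp 0 genes were higher in Texel and 5 in Ujumqin.

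The breed difference at 120 d was set against the mean of the other 4 stages in a fit with sex as a term. With an adjusted p under 0.05 and no fold threshold, it differed for 1 of the 745 genes (0.134%), BARX2. Among all probes it differed for 20 (0.139%), 8 toward Texel (0.0556%) and 12 toward Ujumqin (0.0835%). The difference of BARX2 exceeded the mean of the other stages by −1.32 (SE 0.26, adjusted p = 0.0387) in the direction of Ujumqin. In the fit without sex, which gives other values, its breed differences were −0.35, −0.21, −0.39 and 0.04 at 70, 85, 100 and 135 d. The count was 64 without T120 replicate 1, 0 without any other of the 6 fetuses, 0 with 75th percentile scaling and 0 with normexp. Among the probes of the study, GBP2 (A_70_P066386) differed by 5.19 (SE 1.04, adjusted p = 0.0387), and in the fit without sex its breed differences were 1.36, 1.80, 1.82 and 1.49 at these stages and 6.17 at 120 d. The other GBP2 probe, A_70_P066921, differed by 3.13 and did not pass (adjusted p = 0.157). CEBPB differed by 2.06 (SE 0.39, adjusted p = 0.0387). For the other genes named here the difference between stages did not pass adjustment. IRF1, for example, had breed differences in the fit without sex of 0.30, 0.24, 0.26 and 0.37 at the other stages and 1.71 at 120 d, and NOS2 had 0.27, 0.33, 0.03 and −0.86 against −1.70.

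**Figure D5:**
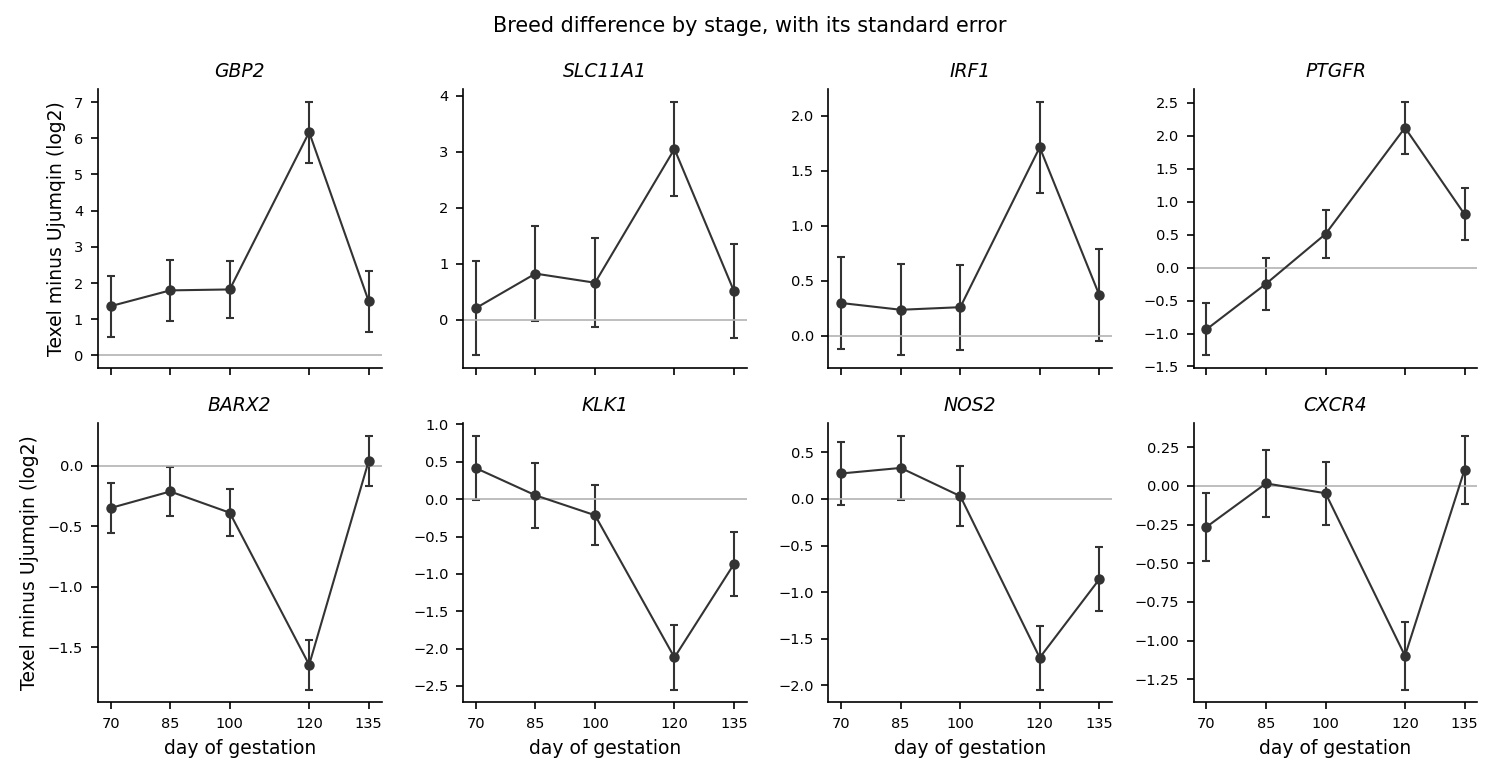
Breed difference (Texel minus Ujumqin, log2) of 8 genes by day of gestation, with the standard error from the limma fit over 10 groups as bars and a vertical scale of its own for each gene. At 120 d GBP2 (probe A_70_P066386) reaches 6.17 and BARX2 −1.65, and of the 8 only these 2 differed from the mean of the other stages after adjustment.

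Levels at 120 d can also be read against the other 25 fetuses. GBP4 was higher in each T120 fetus than in any of the 25, which reached 4.14 at most. For GBP2 by probe A_70_P066386, 1 of the 25 exceeded the lowest T120 fetus, for SC5 and NPVF 1, for IRF1 and B2M 2, and for IL10 and SLC11A1 3. For CXCL10 12 of the 25 did, since T120 replicate 1 was low. The number was 11 for CHI3L1, 13 for CD86, 15 for TNF and 15 for ITGAM.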

How the data were processed

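RNA of longissimus dorsi from 31 fetuses was measured on 1-colour arrays of 15008 probes, and the 6 arrays of 120 d were compared. The authors made the linear signal intensity of each spot with Feature Extraction 10.5, which subtracted background and corrected for position on the array, per the file headers. The deposited table holds log2 values that the authors quantile-normalized over all 40 arrays, and it served as an alternative. Its 9 columns of postnatal animals were not used.

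Outlier spots were left out, spots of a probe averaged, the 31 arrays quantile-normalized, values under 1 set to 1 and log2 taken. Probes well above background on at least 1 fetal array were tested (14379). Of 1605 probes named in the files 1326 matched 1 gene of the ARS-UI_Ramb_v3.0 table, which served only for names and autosomes, and 279 matched no single gene. A gene was represented by its brightest probe. limma 3.58.1 in R 4.3.3 gave moderated tests with Benjamini-Hochberg adjustment over all tested probes, for the 6 arrays, for all 10 groups of breed and stage, and with sex added. The fits were run on simulated data with the same spread in every group and no effect of slide or sex. The wider spread of T120 was therefore not covered by the simulation. Tables and figures were made with Python 3.11.15, numpy 2.4.6, pandas 2.3.3 and matplotlib 3.10.9.

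Named were the 12 largest differences per direction among genes past the unadjusted threshold without overlap and well above background on all 3 arrays of the brighter breed, the 5 widest ranges per breed, genes that differed from the other stages, the study's probes, probes of XIST and of Y-linked genes, and of each list the members past the unadjusted threshold or, without any, its brightest and smallest-p members. Members and the 20 gene lists and 11 marker lists were chosen with earlier results of these data known. Alternatives covered scaling, background correction with normexp, filters, floors, probes per gene, tests, array weights, blocks for slide and replicate number, and each fetus left out. Saturation marked 0 spots.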

Additional observations from a re-analysis of the deposited data

Results flagged for a closer look

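For 3 of the genes and probes named in the report the breed difference at 120 d differed from its mean over the other 4 stages, in the limma fit with sex as a term. BARX2 differed by −1.32 (adjusted p = 0.0387), GBP2 by probe A_70_P066386 by 5.19 (adjusted p = 0.0387) and CEBPB by probe A_70_P011531 by 2.06 (adjusted p = 0.0387). The other GBP2 probe, A_70_P066921, differed by 3.13 and did not pass (adjusted p = 0.157). BARX2 was the only 1 of the 745 tested genes to pass, and the other 2 were picked by the study from these samples. The count of 1 gene was 0 with 75th percentile scaling and 0 with normexp. It was 64 without T120 replicate 1 and 0 without any other fetus of 120 d. For CEBPB the value of T120 replicate 3 was missing.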

How the results depend on the processing

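The count of 0 genes past the adjusted threshold held under every alternative but slide as a block, which gave 14 and coincides with leaving out T120 replicate 1, and ranged from 0 to 14 over the fetuses left out. The 49 genes past the unadjusted threshold were 19 with normexp, 28 with a floor of 16, 13 with Welch's test, 104 with slide as a block and 78 at 1.5-fold, with a range of 30 to 104 over the fetuses left out. The split between the breeds was 9 in Texel and 10 in Ujumqin with normexp, 12 and 16 with the floor, 4 and 9 with Welch's test, 38 and 40 at 1.5-fold, 14 and 17 without U120 replicate 2 and 14 and 16 without U120 replicate 3, against 28 and 21. For all probes the 559 became 201 with normexp, 326 with the floor, 165 with Welch's test, 1094 with slide as a block and 1190 at 1.5-fold, with a range of 397 to 1093, and the split of 325 and 234 turned with Welch's test (63 and 102) and at 1.5-fold (493 and 697). The cause was not tested for any of these, apart from the lower fold threshold, which admits more by construction.

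With sex as a term the 10 genes were 5 with normexp and 13 with slide as a block, and 1 to 80 over the fetuses left out. In the fit over 10 groups the 19 genes were 30 without a fold threshold, and 3 to 88 over the fetuses left out. The 1 gene that differed from the other stages was 0 with 75th percentile scaling and 0 with normexp, and 0 to 64 over the fetuses left out. Quantiles over the 6 arrays alone could not be applied to these fits. The cause was not tested.

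The median SD with normexp was 0.32 in T120 and 0.14 in U120, both smaller, and over the fetuses left out it ran from 0.32 to 0.48 in T120 and from 0.11 to 0.20 in U120. The median difference over genes ran from −0.10 to 0.02 over the fetuses left out. ACACA reversed to 0.17 with the deposited table, which holds a value for the outlier spot of T120 replicate 1.

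Of 52 named genes and probes past the threshold 12 kept it under all 19 alternatives, of which 4 were annotated autosomal genes (BARX2, PTGFR, KLK1 and NPPC), 4 were probes the study picked (OVAR-DQB1, both of GBP2 and STMN2) and 4 were probes that check the sex. With normexp 25 did not, and with Welch's test 30 did not. The labels give no pairing of the fetuses by replicate number. Deviations from the breed mean of fetuses with the same number had correlations of −0.056, 0.097 and −0.305. These cannot decide whether a pairing exists, since the deviations within a breed cancel each other. A block for replicate number gave 53 genes. Signal near the background limits IL7, ITGAM, EPO, GBP4 and OVAR-DQB1, whose U120 arrays were mostly not well above it.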
